A study of Homo sapiens with 6 samples.

Results

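The 4 receptor-interacting protein kinases were overexpressed in PA-1 cells, and the library given RIPK4 was set against those given RIPK1, RIPK2 and RIPK3, gene by gene. PA-1 is a human line grown from an ovarian teratocarcinoma and keeps many traits of pluripotent embryonal cells. The RIPK1, RIPK2, RIPK3 and RIPK4 cells took 8 µg of plasmid for 48 h, and a Vector library came from cells given the same amount of empty pCDNA3.1. A Wnt3a library, from cells given 200 ng of the ligand for 16 h, was read beside them. The sources used here do not say if cells given Wnt3a were transfected as well, and the labels name no promoter, tag or share of transfected cells. Each of the 6 groups is 1 library, so 4 of 6 libraries enter the comparison and no difference below has a replicate check or a p-value.

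Of 20494 genes in the table, 11877 were analysed: those with a mean of at least 1 RPKM (reads scaled to the length of the gene and the size of the library) over the 6 libraries, without the 4 kinase genes. For each gene the log2(RPKM + 1) value of every other kinase library was subtracted from that of the RIPK4 library. Differences of 1 or more in size, 2-fold on that scale, were counted. The added 1 understates the change of weakly expressed genes. All these differences share the RIPK4 library, so an unusual value in it enters each of them.

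RIPK1, RIPK2, RIPK3 and RIPK4 share a related kinase domain and differ in the domains around it. RIPK1 and RIPK3 act in death receptor signalling and necroptosis, RIPK2 acts below the NOD receptors for bacterial wall fragments, and RIPK4, which carries ankyrin repeats, is needed for epidermal differentiation. RIPK4 has also been placed in Wnt signalling, as a kinase for the Dishevelled proteins that act between the Frizzled receptors and beta-catenin. In the canonical pathway, stabilised beta-catenin joins TCF and LEF proteins on DNA, and many of the genes it switches on encode inhibitors of the same pathway.

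The transfected kinases were read first. RIPK4 reached 17.9 RPKM (1309 reads) in the library labelled with it and was listed at 0 in the other 5. RIPK3 reached 61.4 RPKM in the RIPK3 library and stood at 0.0384 with RIPK2, at 0.0200 with Wnt3a and at 0 in the rest. RIPK2 reached 27.4 RPKM in the RIPK2 library and lay between 8.50 and 11.8 elsewhere, and RIPK1 reached 16.6 RPKM in the RIPK1 library and lay between 9.35 and 13.4 elsewhere. Each kinase was thus highest in the library labelled with it, but RIPK4 and RIPK3 were raised from near 0, while the RIPK1 library held only 1.48 times (95% interval 1.36 to 1.61) the RIPK1 level of the RIPK4 library. Transfected and endogenous transcripts cannot be told apart in these values.

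Library totals, worked out from the RPKM that 1 read is worth, lay between 17.2 M and 19.5 M reads. A count of 0 allows up to 3 reads, which for a 2 kb gene is 0.0769 to 0.0819 RPKM in the 6 libraries. Intervals given with ratios are exact binomial 95% intervals. They hold counting error alone and compare 2 libraries, not 2 conditions. The labels mention no molecular identifiers, so reads need not be independent molecules. Markers of pluripotent and embryonal carcinoma cells expressed in the RIPK4 library included SOX2 at 78.1, LIN28A at 356 and PRDM14 at 44.9 RPKM. Of 12 such markers, 9 were among the genes analysed and 1 was listed at 0 in all 4 kinase libraries. RIPK4 was the lowest kinase library for 4 of the 9 (44.4%, against 15.3% of all genes) and the highest for 1 (11.1%, against 25.8%). The summed level of 8 haematopoietic markers was 2.20 to 5.91 RPKM in the 6 libraries (3.01 with RIPK4), with HBB at 0 throughout and PTPRC at 0 in all but Vector. In bulk RNA, fewer cells expressing a gene and less RNA in each cell cannot be told apart.

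Differences also followed transcript GC content (the share of G and C bases), to an extent that depended on the library compared. Across 11804 genes with a known GC content, Spearman's rho between GC content and the difference was 0.734 for RIPK4 minus RIPK1, -0.172 for RIPK4 minus RIPK2 and 0.176 for RIPK4 minus RIPK3. These are correlations across genes within single pairs of libraries, and genes are not independent replicates. In the 1181 genes with the lowest GC content (median 36.9%) the median of RIPK4 minus RIPK1 was -0.27, and in the 1178 with the highest (median 64.0%) it was 0.46. Values with the GC trend removed are given beside several of the list results against RIPK1.

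**Figure D1:**
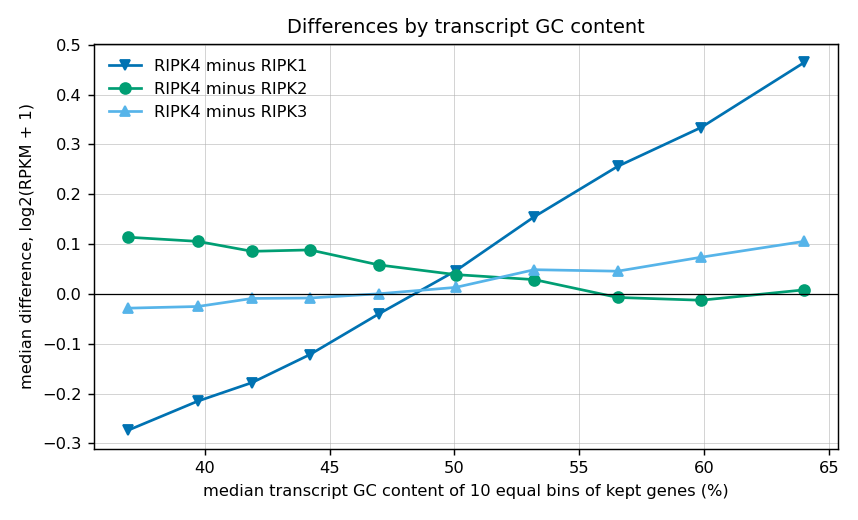
Median difference in log2(RPKM + 1) between the RIPK4 library and each other kinase library (vertical axis) against the median transcript GC content (horizontal axis, percent) of 10 equal bins of genes. RIPK4 minus RIPK1 climbs from -0.27 to 0.46 across the bins, while the other 2 lines stay within 0.12 of 0.

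Only 16 genes lay outside the range of the other 3 kinase libraries by 2-fold or more. RIPK4 was at least 2-fold above each of RIPK1, RIPK2 and RIPK3 for 11 genes (0.0926% of those analysed) and at least 2-fold below each of them for 5 (0.0421%). By any margin it was the highest of the 4 kinase libraries for 3070 genes (25.8%) and the lowest for 1817 (15.3%). Of the 11 high genes, 10 encode proteins, as do 11377 of all 11877 genes. The 10 are the transcription factors CDX1, CDX2, NKX1-2, MIXL1, MSX1 and HES6, and the Wnt pathway regulators NKD1, NKD2, DACT1 and RNF43. The remaining one, SNORA76, and all 5 low genes are small RNAs with few reads. Set by the same rule, RIPK1 had 4 genes above each of the others and 59 below (2 and 57 of them protein coding), RIPK2 had 11 and 2 (1 and 0), and RIPK3 had 1 and 6 (1 and 0), against 10 and 0 protein-coding genes for RIPK4.

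**Figure D2:**
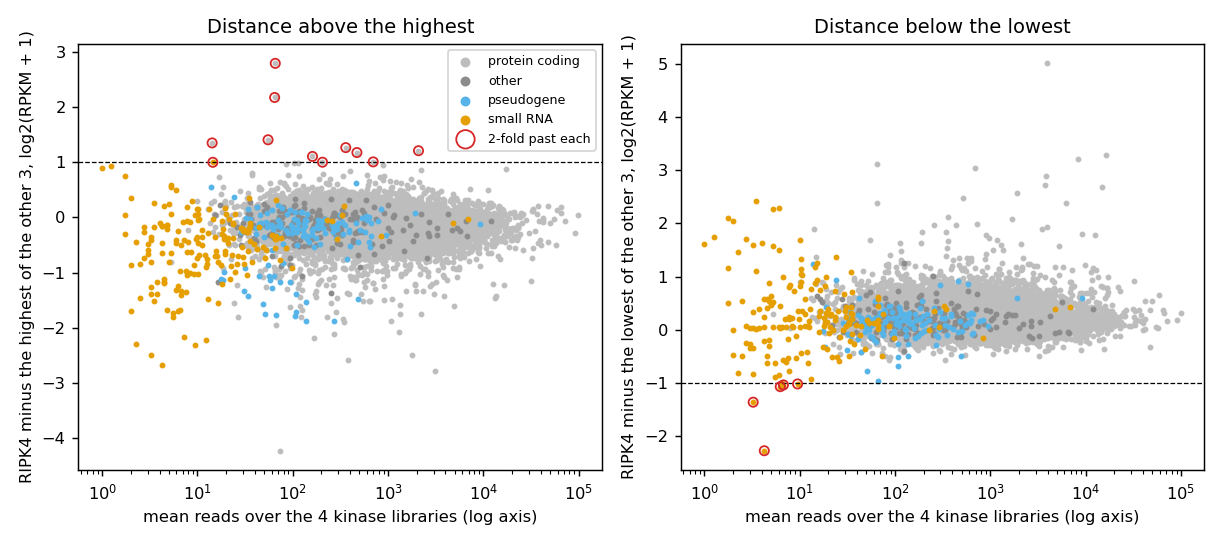
Difference in log2(RPKM + 1) between the RIPK4 library and the highest (left) or lowest (right) of the RIPK1, RIPK2 and RIPK3 libraries (vertical axes) against mean reads per gene over the 4 kinase libraries (log axis). Each point is a gene, coloured by class, and red circles mark the 11 genes above the upper dashed line and the 5 below the lower one. The circled low genes sit at mean reads of 3.25 to 9.5, while 8 of the 11 circled high genes have over 60.

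A total of 3 of the 10 coding genes hold a TCF/LEF motif close to their start in the reference genome, and their windows are printed so that the motif can be seen beside the values that follow. The windows run from 250 bases before to 50 after the gene start and come from RefSeq on GRCh38.p14. The search took CTTTGAT or CTTTGAA on either strand. It found a match in 3 of the 8 coding genes with a window (37.5%, CDX1 and NKD1 had no entry). The share was 5.56% of 9568 analysed genes with a window and 8.35% of 27305 genes in the table of windows. In the Wnt lists described below, it was 1 of 9 inhibitors (11.1%, DACT1) and 2 of 13 beta-catenin targets (15.4%, CDX2 and MIXL1). A gene with several windows was counted if any of them matched, and a matching one is printed. The windows are those of MIXL1 (chr1:226223414-226223713, plus strand, motif from position -76 relative to the start), CDX2 (chr13:27969266-27969565, minus strand, from -238) and DACT1 (chr14:58633811-58634110, plus strand, from -214). Each is written from 5′ to 3′ along the gene, with the motif in capitals.
MIXL1: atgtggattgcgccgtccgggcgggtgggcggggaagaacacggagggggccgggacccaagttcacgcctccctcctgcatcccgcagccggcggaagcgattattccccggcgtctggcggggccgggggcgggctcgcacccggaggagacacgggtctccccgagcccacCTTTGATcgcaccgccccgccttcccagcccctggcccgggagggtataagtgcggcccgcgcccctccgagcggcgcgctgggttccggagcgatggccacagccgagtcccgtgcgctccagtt
CDX2: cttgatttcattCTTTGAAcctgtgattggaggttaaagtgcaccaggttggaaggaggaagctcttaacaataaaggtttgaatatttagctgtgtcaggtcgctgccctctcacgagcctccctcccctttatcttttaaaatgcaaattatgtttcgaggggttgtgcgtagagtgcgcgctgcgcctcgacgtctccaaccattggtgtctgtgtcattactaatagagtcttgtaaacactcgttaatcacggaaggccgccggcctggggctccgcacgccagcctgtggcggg
DACT1: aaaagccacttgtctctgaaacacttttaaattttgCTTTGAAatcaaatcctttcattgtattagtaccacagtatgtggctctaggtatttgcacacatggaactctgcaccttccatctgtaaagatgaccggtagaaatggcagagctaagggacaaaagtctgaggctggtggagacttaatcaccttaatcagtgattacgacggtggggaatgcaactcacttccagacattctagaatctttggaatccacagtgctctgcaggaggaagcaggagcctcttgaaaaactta
A match of letters is a description and not a bound site, and no binding was measured here.

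The largest distance belonged to CDX1, a caudal-type homeobox gene that patterns the posterior embryo. CDX1 stood at 7.61 RPKM with RIPK4, at 0 with RIPK1, 0.205 with RIPK2 and 0.237 with RIPK3, and at 0.0327 with Vector and 18.8 with Wnt3a. It had 247 reads with RIPK4 and 0, 7 and 8 with RIPK1, RIPK2 and RIPK3. RIPK4 was 32.2-fold above RIPK3 (16.1 to 75.3), 37.1-fold above RIPK2 (17.8 to 93.4) and at least 87.7-fold above a floor of 3 reads in the RIPK1 library. Its neighbour in function, CDX2, was 5.64 RPKM with RIPK4, 0.466 with RIPK1, 0.298 with RIPK2, 0.276 with RIPK3, 0.638 with Vector and 8.48 with Wnt3a. RIPK4 was 12.1-fold above RIPK1 (7.57 to 20.5), the nearest of the other 3. Both genes were below 1 RPKM in the Vector, RIPK1, RIPK2 and RIPK3 libraries and entered the analysis only through RIPK4 and Wnt3a.

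MIXL1, a homeobox gene of the primitive streak, behaved in the same way at lower counts. MIXL1 also entered the analysis only through RIPK4 and Wnt3a. It stood at 3.28 RPKM with RIPK4, 0.294 with RIPK1, 0.149 with RIPK2, 0.676 with RIPK3, 0.332 with Vector and 3.71 with Wnt3a. These levels rest on 42 reads with RIPK4 and on 4, 2 and 9 with the others, and the RIPK4 to RIPK3 ratio of 4.86 has an interval of 2.33 to 11.4. The homeobox gene NKX1-2 stood at 6.98 RPKM with RIPK4, 1.48 with RIPK1, 1.66 with RIPK2, 1.999 with RIPK3, 2.15 with Vector and 5.68 with Wnt3a. It was one of only 2 coding genes among the 10 that were higher with RIPK4 than with Wnt3a. RIPK4 was 3.49-fold above RIPK3 (2.40 to 5.19).

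MSX1, a homeobox gene that responds to both BMP and Wnt signals, passed 2-fold narrowly and was spread differently. It stood at 37.6 RPKM with RIPK4, 3.71 with RIPK1, 17.4 with RIPK2, 18.2 with RIPK3, 5.90 with Vector and 49.8 with Wnt3a. The RIPK2 and RIPK3 libraries were thus also above Vector, and the RIPK1 library was the lowest. RIPK4 was 10.1-fold above RIPK1 (8.51 to 12.2) but 2.07-fold above RIPK3 (1.88 to 2.27). HES6, a basic helix-loop-helix factor of the Hes family, stood at 12.02 RPKM with RIPK4, 4.96 with RIPK1, 4.66 with RIPK2, 5.49 with RIPK3, 5.42 with Vector and 11.9 with Wnt3a. The other 4 libraries were close to one another, and RIPK4 exceeded RIPK3 2.19-fold (1.82 to 2.65).

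The pathway regulators were expressed in all 6 libraries, and their differences from the highest other kinase lay between 1.11 and 1.27. NKD1 and NKD2 encode the naked cuticle proteins, which bind Dishevelled and dampen the signal. NKD1 stood at 14.8 RPKM with RIPK4, 3.98 with RIPK1, 5.21 with RIPK2, 5.57 with RIPK3, 4.39 with Vector and 23.4 with Wnt3a. RIPK4 was 2.66-fold above RIPK3 (2.31 to 3.07) and 3.72-fold above RIPK1 (3.18 to 4.38). NKD2 stood at 8.09 RPKM with RIPK4, 3.21 with RIPK1, 3.04 with RIPK2, 2.94 with RIPK3, 3.69 with Vector and 9.20 with Wnt3a, and its lowest ratio was 2.52 to RIPK1 (2.03 to 3.13). For both genes Vector lay among or just above the other kinases, and only RIPK4 and Wnt3a were apart.

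DACT1, another Dishevelled-binding protein, was the most strongly expressed per length of the 10. It stood at 47.6 RPKM with RIPK4, 14.9 with RIPK1, 18.2 with RIPK2, 19.97 with RIPK3, 16.0 with Vector and 66.2 with Wnt3a. RIPK4 was 2.38-fold above RIPK3 (2.25 to 2.53). RNF43, a ubiquitin ligase that removes Frizzled receptors from the cell surface, stood at 7.84 RPKM with RIPK4, 2.82 with RIPK1, 2.90 with RIPK2, 2.86 with RIPK3, 3.28 with Vector and 12.4 with Wnt3a. The other 3 kinase libraries were nearly equal for RNF43, and RIPK4 was 2.70 to 2.78 times each of them.

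**Figure D3:**
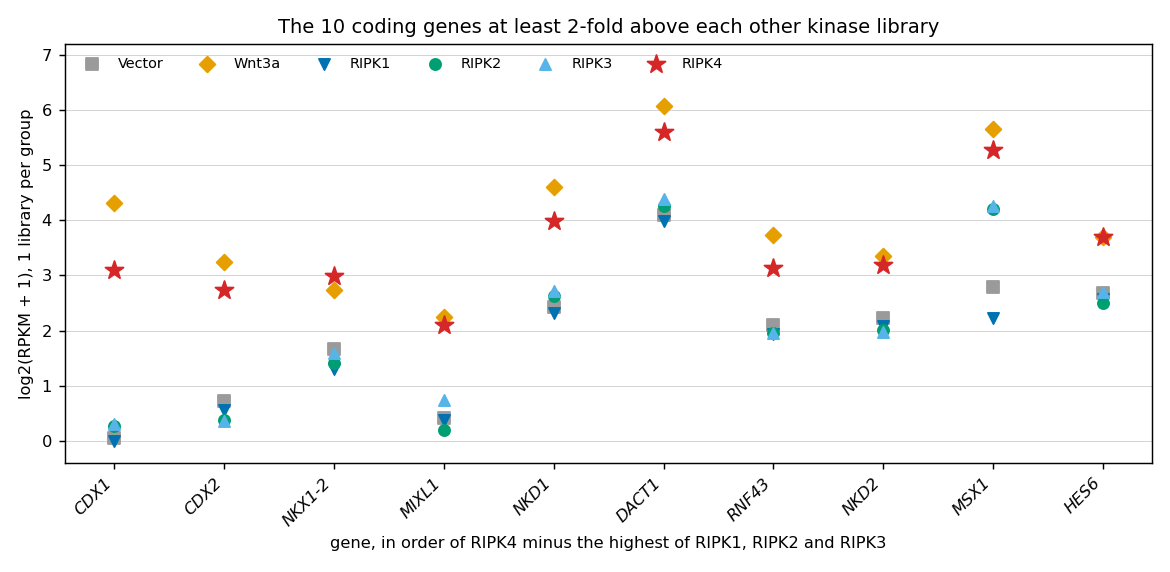
Level of each gene in log2(RPKM + 1) (vertical axis) in the 6 libraries for the 10 coding genes at least 2-fold above each other kinase library, in order of that distance (horizontal axis). The red stars (RIPK4) stand above the blue and green markers (RIPK1, RIPK2, RIPK3) in every column, and the orange diamonds (Wnt3a) stand above the stars for 8 of the 10.

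The limit of 2-fold cuts a continuous order. Just inside it were MSX1 (a difference from the highest of the other 3 of 1.01), HES6 (1.004) and SNORA76 (1.002). Just outside were the neurotrophic factor NRTN (0.99), SBK2 (0.97), RPS10 (0.96) and TUBB2A (0.88). RPS10 and TUBB2A have near-identical copies elsewhere in the genome, so their reads may be shared out differently by another counting method. SNORA76 rested on 25 reads with RIPK4 and on 12, 11 and 10 with RIPK1, RIPK2 and RIPK3.

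Leaving out each other kinase library in turn showed how far the counts hang on it. Without RIPK1, 28 genes (23 coding) lay above both RIPK2 and RIPK3 and 65 (56 coding) lay below both. Without RIPK2 the counts were 12 and 7, and without RIPK3 they were 15 and 12. With the GC trend removed, 7 of the 10 stayed at least 2-fold above each, and NKD2 (0.59), HES6 (0.59) and MSX1 (0.93) fell short.

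Wnt3a and Vector took no part in choosing these genes, apart from their share in the mean of 6 libraries behind the expression filter. CDX1, CDX2 and MIXL1 passed that filter through their RIPK4 and Wnt3a levels. All 10 coding genes were at least 2-fold higher with Wnt3a than with Vector, a difference that 80 of the 11877 genes showed (0.674%). The median of Wnt3a minus Vector was 1.90 over the 10 and 0.04 over all genes analysed. SNORA76 was lower with Wnt3a (2.86 RPKM, 7 reads) than with Vector (6.59 RPKM, 15 reads). A total of 8 of the 10 coding genes were lower with RIPK4 than with Wnt3a, as were 5353 of all 11877 genes. The exceptions were NKX1-2 (6.98 and 5.68 RPKM) and HES6, and for HES6 the values were close (12.02 and 11.9 RPKM). No interval was worked out for RIPK4 against Wnt3a, so counting error in these differences was not assessed. Wnt3a minus Vector also followed GC content (rho 0.692 across 11804 genes). With that trend removed, an alternative chosen after seeing the data, all 10 stayed higher with Wnt3a and 7 of them at least 2-fold. Of all 11877 genes, 5996 and 42 were.

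A lower limit gave a larger set, with smaller differences between Wnt3a and Vector. RIPK4 was at least 1.5-fold above each of the other 3 for 52 genes. Of these, 47 were coding, as were 11377 of all 11877 genes. Of the 52, 47 were higher with Wnt3a than with Vector by any margin, which 53.3% of all genes were. By 2-fold or more, 23 were, against 0.674% of all genes. RIPK4 was lower than Wnt3a for 34 of the 52 and above Vector for 50, where 5353 and 6608 of all 11877 genes were. The 52 were chosen for high RIPK4 values, which favours a level above Vector. Their median transcript GC content was 59.7%, against 48.3% over all genes, so they lie on the side of the GC trend that is raised both in RIPK4 minus RIPK1 and in Wnt3a minus Vector. With the trend removed, 44 of the 52 were higher with Wnt3a and 11 by 2-fold or more, where 5996 and 42 of all 11877 genes were. The median of Wnt3a minus Vector over the 52 was then 0.61 in place of 0.94. The set includes IGDCC3 (a difference of 0.86), the Wnt inhibitor APCDD1 (0.84) and the cell surface proteoglycan SDC1 (0.79), all named after their values were seen.

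Wnt inhibitors as a list lay above all 3 kinase libraries. Of 23 Wnt feedback inhibitors and negative regulators, 15 passed the expression filter. RIPK4 was the highest kinase library for 11 of the 15 (73.3%, against 25.8% of all genes) and the lowest for none (against 15.3%). The 11 include 4 genes already picked above as 2-fold above each. The median difference over the 15 was 0.71 against RIPK1, 0.70 against RIPK2 and 0.59 against RIPK3, where all genes gave 0.02, 0.06 and 0.02. With the GC trend removed the 3 medians were 0.58, 0.62 and 0.59, and without the expression filter they were 0.22, 0.43 and 0.38. These counts and medians describe lists drawn up with results of these data known.

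AXIN2, a scaffold of the complex that destroys beta-catenin and a common readout of the pathway, fell short of 2-fold. It stood at 27.8 RPKM with RIPK4, 16.7 with RIPK1, 14.1 with RIPK2, 16.7 with RIPK3, 14.7 with Vector and 35.1 with Wnt3a, and RIPK4 was 1.66-fold above RIPK3 (1.56 to 1.77). NOTUM, a secreted enzyme that inactivates Wnt ligands, stood at 7.36 RPKM with RIPK4, 1.34 with RIPK1, 4.91 with RIPK2, 4.92 with RIPK3, 2.07 with Vector and 10.8 with Wnt3a. Like MSX1 it was lowest with RIPK1 and above Vector with RIPK2 and RIPK3. Members of the list also differed in direction. SHISA3 stood at 13.3 RPKM with RIPK4, 28.6 with RIPK1, 6.76 with RIPK2, 8.27 with RIPK3, 31.6 with Vector and 1.73 with Wnt3a. RIPK4 was 2.15-fold below RIPK1 for it (1.93 to 2.40) and 1.97-fold above RIPK2 (1.69 to 2.30). SFRP2, a secreted Wnt antagonist, lay between 314 and 347 RPKM in the 4 kinase libraries.

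Of 29 Wnt/beta-catenin target genes, 18 passed the filter, and RIPK4 was highest for 11 (61.1%, against 25.8% of all genes) and lowest for MYC alone (12.3 RPKM against 12.7 to 16.0). Their medians were 0.55, 0.30 and 0.26 against RIPK1, RIPK2 and RIPK3, and without the expression filter 0.39, 0.16 and 0.14. The median against RIPK3 was 0.17 with the GC trend removed and 0.08 at a mean RPKM of at least 5. CDX1, CDX2, NKX1-2, MIXL1 and MSX1 were the 5 members 2-fold above each, and so had already been picked by their RIPK4 values. CDX1, CDX2 and MIXL1 passed the filter only through RIPK4 and Wnt3a, so the share of 61.1% is in part set by the filter. LEF1, which carries beta-catenin to DNA, stood at 4.73 RPKM with RIPK4, 2.95 with RIPK1, 3.92 with RIPK2, 4.09 with RIPK3, 2.75 with Vector and 7.31 with Wnt3a, and its ratio of RIPK4 to RIPK3 was 1.16 (0.986 to 1.36), within counting error. The cyclin CCND1 was lower with RIPK4 than with RIPK2 and RIPK3 but above RIPK1, at 211 RPKM with RIPK4, 122 with RIPK1, 246 with RIPK2 and 244 with RIPK3. The target T, or brachyury, gave at most 1 read in any library, and so did the inhibitor DKK1, so a difference in them was not detectable at this depth.

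The receptors and signal carriers above those targets differed less. Of 33 receptors and transducers, 29 passed the filter and none differed 2-fold from any of the 3 kinase libraries. Only 0.185% to 1.08% of all genes did in any 1 direction, so few were to be expected among 29. RIPK4 was the highest kinase library for 11 (37.9%, against 25.8% of all genes) and the lowest for 3 (10.3%, against 15.3%). It was above RIPK2 for 22, as for 7103 of all 11877 genes. Medians were 0.04, 0.16 and 0.10. The receptor ROR2 lay farthest above the others (33.8 RPKM with RIPK4 against 21.2 to 24.6), and the beta-catenin gene CTNNB1 stood at 120 RPKM with RIPK4, 119.5 with RIPK1, 98.9 with RIPK2 and 107 with RIPK3.

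No protein-coding gene was 2-fold below each of the other kinase libraries. The 5 small RNAs below each were SNORD42B, SNORD98, SNORD102, SNORA66 and RNU11. SNORD42B and SNORD98 had 0 reads with RIPK4 and between 2 and 7 in the other kinase libraries, and the remaining 3 had 2 reads with RIPK4 and between 6 and 21. Such small numbers allow no firm ordering of the libraries. At the same 2-fold limit but with at least 20 reads on average, the count was 0. At 1.5-fold, 20 genes lay below each, of which 17 were small RNAs and none coded for protein. RIPK4 was the lowest kinase library for 27.9% of 179 small RNAs and 30.7% of 137 pseudogenes, against 14.9% of 11377 coding genes. The median small RNA had 10.25 reads.

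Among larger transcripts, the lowest values with RIPK4 belonged to pseudogenes and copies. UQCRBP1 was lowest (a difference from the lowest of the other 3 of -0.95), ahead of ANXA2P3 (-0.78) and HSP90B3P (-0.68). All are processed copies of expressed genes, whose reads are uncertain. The largest difference of a coding gene without such a copy was that of CYP26A1, an enzyme that breaks down retinoic acid. CYP26A1 stood at 4.42 RPKM with RIPK4, 9.24 with RIPK1, 7.07 with RIPK2, 7.59 with RIPK3, 7.74 with Vector and 0.218 with Wnt3a. The plasmid libraries other than RIPK4 were alike, Wnt3a was almost at 0, and RIPK4 lay between. RIPK2, the nearest, was 1.60-fold above RIPK4 (1.34 to 1.91). ANP32B, a histone chaperone, stood at 75.1 RPKM with RIPK4 and between 103 and 129 in the other 5 libraries.

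Interferon-stimulated genes had the largest median of the 25 lists against RIPK1, and RIPK4 lay between the other kinases for nearly all of them. Of 47 such genes, 39 passed the filter. RIPK4 lay between the lowest and highest other kinase for 38 of them, as for 6990 of all 11877 genes. All 39 were higher with RIPK4 than with RIPK1, as were 6191 of all genes. Of the 39, 25 were at least 2-fold higher, where 86 of all genes were (0.724%, or 67 genes with the GC trend removed). Against RIPK2, 8 were at least 2-fold lower, and against RIPK3, 16, where 128 (1.08%) and 92 (0.775%) of all genes were. The medians were 1.19 against RIPK1, -0.66 against RIPK2 and -0.76 against RIPK3, or 1.33, -0.67 and -0.81 with the GC trend removed. IFITM2 alone was highest with RIPK4.

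The summed level of all 47 genes was 5484 RPKM with RIPK4, 1319 with RIPK1, 6615 with RIPK2, 7060 with RIPK3, 4401 with Vector and 4200 with Wnt3a. RIPK1 was thus the library that stood apart, below Vector as well, and RIPK4 lay between Vector and the RIPK2 and RIPK3 libraries. IFI27, a mitochondrial protein strongly induced by type I interferon, stood at 273 RPKM with RIPK4, 7.54 with RIPK1, 334 with RIPK2, 415 with RIPK3, 200 with Vector and 193 with Wnt3a. RIPK4 was 36.3-fold above RIPK1 (30.2 to 43.8), the largest difference of any gene on the log2(RPKM + 1) scale (5.01), while RIPK3 was 1.52-fold above RIPK4 (1.46 to 1.58).

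OAS3, which makes the messenger that activates RNase L, stood at 53.4 RPKM with RIPK4, 4.85 with RIPK1, 79.6 with RIPK2, 91.1 with RIPK3, 34.8 with Vector and 28.3 with Wnt3a. IFIT3, which takes part in binding viral RNA, had another spread: 10.4 RPKM with RIPK4, 2.78 with RIPK1, 41.0 with RIPK2, 47.5 with RIPK3, 11.6 with Vector and 2.97 with Wnt3a. IFIT3 with RIPK4 was near Vector, and Wnt3a joined RIPK1 at the bottom. RIPK3 was 4.56-fold above RIPK4 (4.14 to 5.02) and RIPK4 3.74-fold above RIPK1 (3.11 to 4.53).

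Many of these genes carry an interferon-stimulated response element near the start, and the windows of these 3 are printed to show it. The search took GAAA, any 2 bases and GAAA again, on either strand of the same RefSeq windows. It found a match for 18 of 31 kept members with a window (58.1%), against 3.62% of analysed genes and 4.38% of all genes in the table. The windows are those of IFI27 (chr14:94110486-94110785, plus strand, matches from -108 and -95), OAS3 (chr12:112938224-112938523, plus strand, from -143 and -12) and IFIT3 (chr10:89327747-89328046, plus strand, from -156 and -122), with each of their 2 matches in capitals. A match on the opposite strand reads as TTTC, any 2 bases and TTTC here.
IFI27: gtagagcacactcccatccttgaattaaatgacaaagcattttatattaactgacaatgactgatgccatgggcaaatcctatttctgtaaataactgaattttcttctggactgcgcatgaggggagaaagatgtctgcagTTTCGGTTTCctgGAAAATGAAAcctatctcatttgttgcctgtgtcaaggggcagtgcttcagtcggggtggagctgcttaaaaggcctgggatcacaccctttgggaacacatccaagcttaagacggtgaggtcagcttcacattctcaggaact
OAS3: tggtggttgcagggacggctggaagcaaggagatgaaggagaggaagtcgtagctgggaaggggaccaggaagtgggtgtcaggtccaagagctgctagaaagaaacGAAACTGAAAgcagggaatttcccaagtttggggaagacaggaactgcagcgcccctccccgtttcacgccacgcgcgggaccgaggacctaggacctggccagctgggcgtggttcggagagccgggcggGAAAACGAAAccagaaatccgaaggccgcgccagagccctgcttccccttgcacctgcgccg
IFIT3: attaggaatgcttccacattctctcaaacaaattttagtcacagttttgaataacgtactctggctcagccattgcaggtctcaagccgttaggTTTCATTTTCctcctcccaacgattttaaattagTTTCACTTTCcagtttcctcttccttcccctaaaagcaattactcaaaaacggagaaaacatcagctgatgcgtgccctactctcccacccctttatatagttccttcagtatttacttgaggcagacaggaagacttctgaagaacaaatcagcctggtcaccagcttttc
None of the 8 coding genes above each with a window held this motif, and none of the 31 interferon-stimulated genes held the TCF/LEF motif, which says nothing of the factors themselves.

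Antigen presentation genes, several of them interferon-responsive, were likewise higher than with RIPK1. Of 9 kept members, HLA-C (1.58), HLA-B (1.35) and B2M (1.13) were 2-fold higher against RIPK1, none was 2-fold apart from RIPK2 or RIPK3, and the medians were 0.67, -0.04 and -0.37, the first 0.57 with the GC trend removed. Of all genes, 86 (0.724%) were 2-fold higher against RIPK1. HLA genes resemble one another closely, so the split of reads between them is uncertain. B2M, their shared light chain, stood at 163 RPKM with RIPK4, 74.2 with RIPK1, 168 with RIPK2, 210 with RIPK3, 173 with Vector and 124 with Wnt3a. RIPK1 was the low library for it, and the ratio of RIPK4 to RIPK2 was 0.971 (0.941 to 1.002).

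Of the 8 named genes farthest below RIPK2 and the 8 farthest below RIPK3, which form no list and get no count as a group, 5 that are among both are described. LOX, the enzyme that crosslinks collagen, stood at 0.708 RPKM with RIPK4, 0.344 with RIPK1, 9.26 with RIPK2, 8.68 with RIPK3, 0.849 with Vector and 0.648 with Wnt3a. RIPK2 was 13.1-fold above RIPK4 (9.92 to 17.6). VGF, a secreted neuropeptide precursor, stood at 17.6 RPKM with RIPK4, 7.11 with RIPK1, 99.9 with RIPK2, 127 with RIPK3, 15.2 with Vector and 13.7 with Wnt3a, and RIPK3 was 7.21-fold above RIPK4 (6.71 to 7.77).

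EMP1, a membrane protein, stood at 9.75 RPKM with RIPK4, 6.22 with RIPK1, 56.7 with RIPK2, 59.6 with RIPK3, 10.9 with Vector and 9.36 with Wnt3a. IGFBP6, a binding protein for insulin-like growth factor II, stood at 2.77 with RIPK4, 1.33 with RIPK1, 15.8 with RIPK2, 16.1 with RIPK3, 1.14 with Vector and 2.18 with Wnt3a. The cytokine IL11 stood at 1.72 with RIPK4, 0.914 with RIPK1, 10.7 with RIPK2, 10.7 with RIPK3, 1.87 with Vector and 1.995 with Wnt3a. In all 5 of these genes the RIPK2 and RIPK3 libraries were high and RIPK1 lay below RIPK4. RIPK4 was close to Vector except for IGFBP6, where it lay above. GH1, growth hormone, was high with RIPK3 alone. It was listed at 0 with RIPK4, Vector, Wnt3a and RIPK2, at 0.874 RPKM with RIPK1 and at 17.9 with RIPK3, which was at least 89.6-fold above a floor of 3 reads with RIPK4. GH1 has near-identical neighbours, so its reads are uncertain.

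TGF-beta and BMP targets followed that order in part. Of 25 kept members, 5 were 2-fold lower with RIPK4 than with RIPK2, among them TGFBI, TGFB1, ID3 and BAMBI, and 4 than with RIPK3, among them TGFBI, TGFB1 and ID3. Only ID3 was 2-fold higher than with RIPK1. All genes gave 128 (1.08%) and 92 (0.775%) lower and 86 (0.724%) higher. The medians were 0.19 (0.09 with the GC trend removed), -0.41 and -0.35. The cytokine gene TGFB1 stood at 39.3 RPKM with RIPK4, 24.7 with RIPK1, 102 with RIPK2, 104 with RIPK3, 33.5 with Vector and 35.9 with Wnt3a. RIPK2 was 2.59-fold above RIPK4 for it (2.45 to 2.74). NF-kB targets had medians of 0.41 (0.24 with the GC trend removed), -0.28 and -0.36 over 16 genes, of which the chemokine CCL5 alone was 2-fold apart, at 2.89 RPKM with RIPK4, 0.251 with RIPK1, 7.77 with RIPK2 and 8.50 with RIPK3. The medians of 25 immediate early and ERK response genes were 0.62, -0.34 and -0.33, and the first was 0.35 with the GC trend removed.

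Markers of other kinds of cell differed between the libraries as well. The summed level of 10 fibroblast and mesenchymal markers was 1887 RPKM with RIPK4, 1608 with RIPK1, 2301 with RIPK2 and 2288 with RIPK3, with 1742 for Vector and 1970 for Wnt3a. VIM made up most of it, DCN was at 0 in all 6 libraries, and 7 of the 10 passed the expression filter. Of these 7, 4 were higher with RIPK4 than with RIPK2 and 2 than with RIPK3, where 7103 and 6324 of all 11877 genes were. Of 8 endothelial markers the sums were 85.1, 79.8, 117 and 120 RPKM in the same order, with 76.5 for Vector and 90.9 for Wnt3a, and 6 of the 8 passed. The macrophage marker CD68 stood at 1.94 RPKM with RIPK4, 1.52 with RIPK1, 4.89 with RIPK2 and 4.802 with RIPK3. Markers of trophoblast and extraembryonic endoderm summed to 6.83 RPKM with RIPK4 and to 4.47, 5.76 and 6.49 with RIPK1, RIPK2 and RIPK3. Epidermal markers summed to 5.52 against 8.15, 7.63 and 7.74. Only 1 of 10 and 1 of 9 markers in these 2 lists passed the filter. The part of all these markers in the differences was not tested.

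Sterol synthesis genes were higher with RIPK4 than with RIPK2 and RIPK3, mostly by less than 2-fold. Of 26 cholesterol and fatty acid genes, 25 passed the filter, and RIPK4 was the highest kinase library for 17 (68.0%, against 25.8% of all genes) and the lowest for none (against 15.3%). All 25 were higher with RIPK4 than with RIPK2 and all 25 than with RIPK3, as were 7103 and 6324 of all 11877 genes. The medians were 0.60 and 0.52 there and 0.09 against RIPK1. Against RIPK2, 3 members were 2-fold higher, DHCR7 and STARD4 among them, and against RIPK3 only DHCR7 was. Of all genes, 54 (0.455%) and 46 (0.387%) were.

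DHCR7, the last enzyme of cholesterol synthesis, stood at 38.6 RPKM with RIPK4, 24.3 with RIPK1, 16.9 with RIPK2, 17.3 with RIPK3, 23.2 with Vector and 38.7 with Wnt3a. RIPK4 and Wnt3a were alike and high, RIPK1 and Vector alike, and RIPK2 and RIPK3 low. RIPK4 was 2.29-fold above RIPK2 (2.11 to 2.48) and 1.59-fold above RIPK1 (1.48 to 1.71). HMGCS1, an early enzyme of the pathway, stood at 50.7 with RIPK4, 61.0 with RIPK1, 26.2 with RIPK2, 30.3 with RIPK3, 50.9 with Vector and 55.5 with Wnt3a. Here RIPK2 and RIPK3 were below the other 4 libraries, and RIPK4 did not exceed Vector. Summed over all 26 genes, the levels were 1066 RPKM with RIPK4, 979 with RIPK1, 714 with RIPK2, 740 with RIPK3, 895 with Vector and 1121 with Wnt3a.

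**Figure D4:**
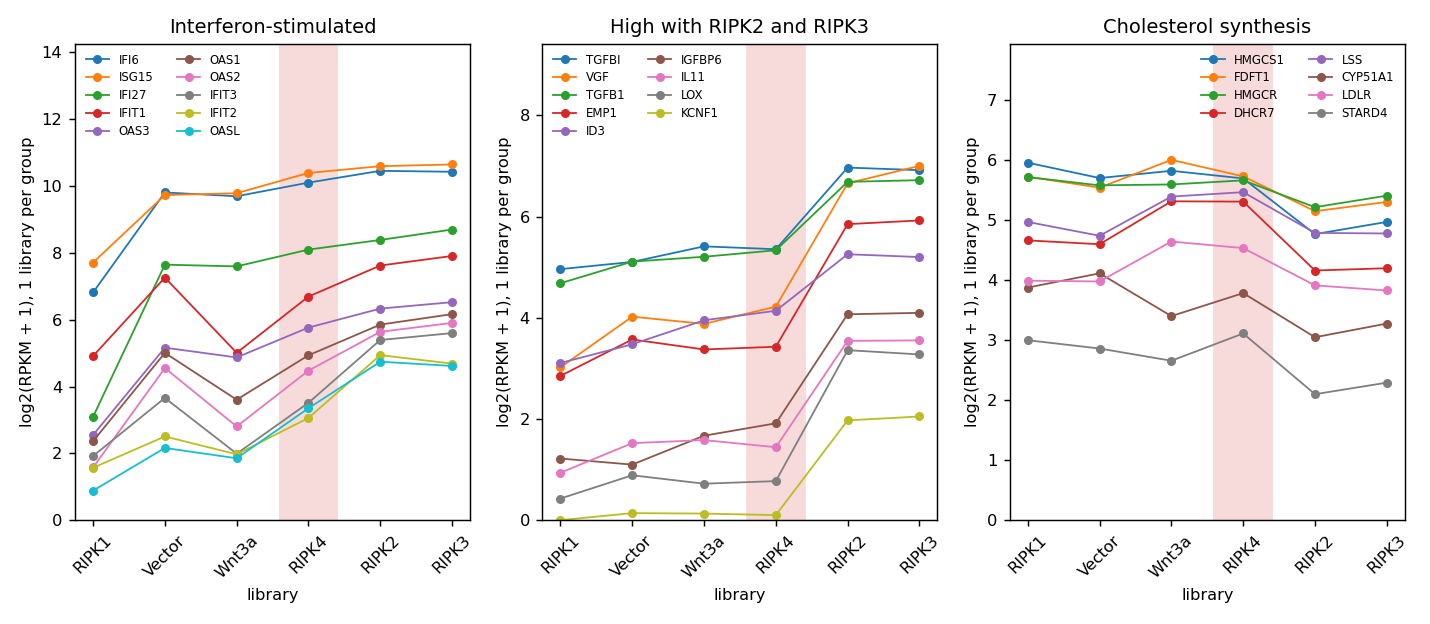
Level in log2(RPKM + 1) (vertical axes) of single genes in the 6 libraries (horizontal axes, RIPK4 shaded), for genes chosen with their values known. Lines join the values of one gene and imply no order of the libraries. With RIPK4, interferon-stimulated genes lie above RIPK1 and at or below RIPK2 and RIPK3, genes such as LOX and EMP1 lie near Vector, and sterol genes lie above RIPK2 and RIPK3.

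Single genes with the same pattern included CD24, a surface glycoprotein, at 10.9 RPKM with RIPK4, 16.4 with RIPK1, 2.33 with RIPK2, 3.22 with RIPK3, 14.0 with Vector and 7.33 with Wnt3a. The kinase gene PIM1 stood at 41.0 with RIPK4, 26.4 with RIPK1, 13.8 with RIPK2, 13.9 with RIPK3, 33.6 with Vector and 39.6 with Wnt3a. In both, RIPK2 and RIPK3 were the low libraries and RIPK4 lay nearer Vector and Wnt3a. The medians of 15 kept pluripotency genes were 0.05, 0.09 and 0.01, and -0.14, 0.31 and 0.35 over those with a mean of at least 5 RPKM. TRIM71, a ubiquitin ligase of early embryonic cells that binds RNA, was highest with RIPK4, at 77.5 RPKM against 53.7, 55.5 and 52.6 with RIPK1, RIPK2 and RIPK3 and 31.4 with Vector. SOX2 stood at 78.1 with RIPK4, 133 with RIPK1, 63.2 with RIPK2, 68.5 with RIPK3, 149 with Vector and 48.1 with Wnt3a.

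Few named genes were lower with RIPK4 than with RIPK1. The count of 2-fold lower genes was 22 (0.185%), of which 18 were small RNAs, 3 coded for protein and 1 was a pseudogene (ANP32C). The coding genes were SHISA3, the forebrain transcription factor FEZF1, and NACA2, which nearly matches another gene. FEZF1 stood at 1.95 RPKM with RIPK4, 5.68 with RIPK1, 1.08 with RIPK2, 0.797 with RIPK3, 3.77 with Vector and 1.18 with Wnt3a, so that RIPK1 and Vector were the high libraries. DNA replication and mitosis genes leaned the same way, with 24 of 30 lower than in RIPK1, where 5685 of all 11877 genes were, and a median of -0.25 (-0.20 with the GC trend removed), and none was 2-fold apart from any kinase library. Medians of the lists for the stress response, p53 targets, hypoxia and glycolysis, necroptosis and death receptors, and RNA polymerase III lay between -0.13 and 0.25 in the 3 comparisons, and SLC2A1 (1.09 against RIPK1) was their only 2-fold gene.

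**Figure D5:**
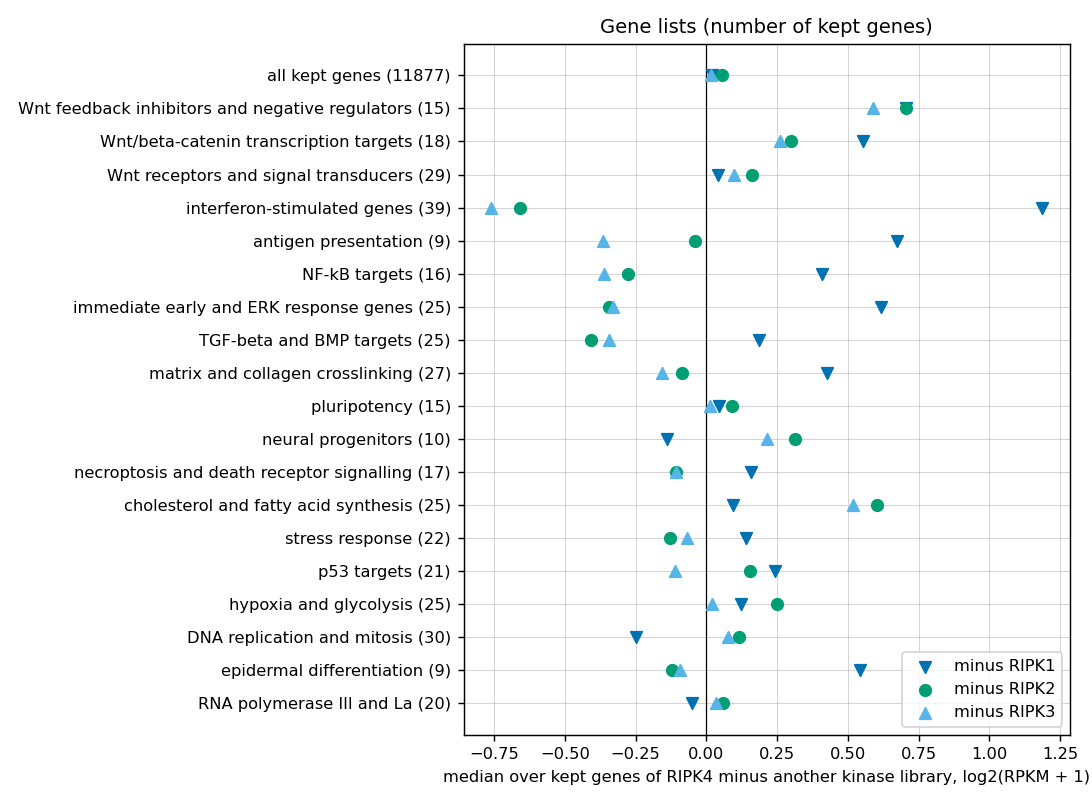
Median over the analysed genes of each list of the difference in log2(RPKM + 1) between the RIPK4 library and RIPK1, RIPK2 or RIPK3 (horizontal axis), with the number of genes in brackets. Wnt inhibitors lie to the right of 0 in all 3 comparisons (0.59 to 0.71), interferon-stimulated genes at 1.19 against RIPK1 and at -0.66 and -0.76 against the other 2, and sterol genes at 0.60 and 0.52 against RIPK2 and RIPK3.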

How the data were processed

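RNA from 6 PA-1 libraries, 1 per group, was sequenced. The authors deposited RPKM for each gene and library, not pooled, per the file headers. GSNAP, DESeq and hg19 are named in the submitters' processing notes. Their roles, the annotation, the counting rule and its use of strand are not given in the sources used, and no scaling between libraries was added. Groups came from the transfection labels.

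Differences were taken on log2(RPKM + 1) for genes whose mean reached 1 RPKM. Whole reads were recovered from the RPKM by trying gene lengths from 15 to 30000 bases against the 5 printed digits. Reads were found for 11845 of the genes analysed (99.7%) and left 1 length, up to whole multiples, for 50.2%, where the shortest was used. For the others reads follow the accepted length nearest that of GENCODE 29 and are approximate. GENCODE 29 is on GRCh38 and served only for length and GC content (lowess trend, fraction 0.2). Gene classes came from RefSeq, which matched 20382 genes and left 112.

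Members and the 25 gene lists were chosen with earlier results of these data known. Named genes were the kinases, the 15 farthest above and below, the 8 largest rises and falls in each pair, 4 or fewer per list by size of difference, and a set of known genes, without unnamed transcripts and small RNAs. Genes given as members of a list or set outside that rule were named after their values were seen. Some genes are not reported here. Scripts were tested on simulated data, with Python 3.11.15, pandas 2.3.3, numpy 2.4.6, scipy 1.17.1 and statsmodels 0.14.6. Alternatives were another pseudocount (0.1), filters on RPKM and reads, median-ratio scaling, removal of the GC trend, and leaving out a library.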

Additional observations from a re-analysis of the deposited data

How the results depend on the processing

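With 1 library per group, a difference between libraries may come from the transfection, the culture or the library itself, and these cannot be told apart. No paired analysis was possible because each group has 1 library and the results come from no test. Counts of 2-fold genes moved with the settings for weakly expressed genes. With a pseudocount of 0.1, RIPK4 was above each of the other 3 for 23 genes and below each for 14. Against RIPK1 it was higher for 212 and lower for 49, against RIPK2 higher for 130, and against RIPK3 higher for 120 and lower for 143. With a mean RPKM of at least 5, the counts were 7 above each and 1 below each, 7 lower than RIPK1, 29 higher and 61 lower than RIPK2, and 26 higher and 55 lower than RIPK3. The 4 genes lost above each were CDX1, CDX2, MIXL1 and NKX1-2. With at least 20 reads on average, 9 were above each (without MIXL1 and SNORA76), 0 were below each and 5 were lower than RIPK1. Leaving out a kinase library gave 12 to 28 genes above each of the rest and 7 to 65 below each, with the highest counts in both directions without RIPK1. No filter, median-ratio scaling and removal of the GC trend kept all 8 counts within 1.5 times. Median-ratio scaling left 8 genes above each, all coding and all among the 10, without HES6 and MSX1. Removal of the GC trend left 7 of the 10. No named gene that was 2-fold apart changed direction in these settings. Of 75 list medians, 27 moved without the filter, 16 with the GC trend removed, 10 at a mean RPKM of at least 5 and 5 with a pseudocount of 0.1. Depth limits small RNAs most, at a median of 10.25 reads.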
